A study of Mus musculus with 12 samples.

Results

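The 27 genes of sterol synthesis and its control by the sterol regulatory element-binding proteins (SREBPs) were followed by ATAC-seq, a measure of chromatin that is open to the Tn5 transposase, in macrophages sorted from mouse brain tumours. The set was taken as a fixed list of pathway genes, and each gene's level is its locus count, the sum of all counted regions that overlap its gene span or the 5 kb on either side. Of the 27 genes, 26 had at least 1 of the 117835 regions of the count table, and all 26 passed the filter on low counts, among 15544 protein-coding loci that passed of 16304 with a region. The sterol transfer protein gene Stard4 had no region. The 26 loci held 108 regions, of which 87 passed the filter.

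Cells were sorted by flow cytometry and the chromatin of their nuclei was measured in 4 groups of 3 libraries, which are lipid-laden microglia (LL-MG), microglia without lipid load (MG), lipid-laden monocyte-derived macrophages (LL-MDM) and monocyte-derived macrophages without lipid load (MDM). All 12 samples carry the same genotype label, Ink4a/ArfKO with PDGFB, which stands for an Ink4a/Arf knockout in which Nestin-positive progenitors were made to express the growth factor PDGFB, so no group comes from a brain without a tumour. The labels give neither the age of the mice nor the gate. Groups were set by the names of the count columns.

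Cells make cholesterol from acetyl-CoA through mevalonate, farnesyl diphosphate, squalene and lanosterol. When sterols in the endoplasmic reticulum are low, the escort protein SCAP carries the SREBP precursors to the Golgi, where a pair of proteases frees the transcription factors that activate the genes of this route, and when sterols are high the INSIG proteins hold SCAP back. Macrophages that take up lipid-rich debris receive cholesterol from outside, and the balance between their own synthesis, storage and export is set by SREBPs and by the oxysterol receptors of the LXR family.

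The group of 8 of the 12 samples depends on the label used, because the sample titles and cell type labels give them another group than the column names do, and only for 4 do they give the same. The lineage markers were read by column name. The locus of Sall1, a microglia regulator, had 66.01, 88.02 and 67.3 CPM in LL-MG, 74.2, 39.8 and 52.8 CPM in MG, 11.9, 9.79 and 6.19 CPM in LL-MDM, and 0.868, 1.07 and 0.488 CPM in MDM. Itga4, an integrin of monocyte-derived cells in glioma, had 57.1, 51.1 and 42.1 CPM in LL-MG, 39.9, 51.2 and 40.8 CPM in MG, 85.2, 80.4 and 83.4 CPM in LL-MDM, and 138, 112 and 116 CPM in MDM. Sall1 was thus higher in every MG and LL-MG library than in any LL-MDM or MDM library, and Itga4 lower, as the column names say. Summed over 10 of 10 microglia markers, counts ran from 505 to 567 CPM in LL-MG, 286 to 528 in MG, 299 to 319 in LL-MDM and 217 to 240.3 in MDM. MG overlapped LL-MDM in this sum. Over 8 of 8 markers of monocyte-derived macrophages they ran from 413 to 452 CPM in LL-MG, 397 to 487 in MG, 632 to 678 in LL-MDM and 936 to 981 in MDM. The lineages did not overlap there. With the groups of the titles, none of the 21 locus calls described here passed the test and 6 changed sign, so these differences rest on the column names. Region totals ran from 1162969 counts (LL-MDM 1) to 18938222 (MDM 2), and 1 count in LL-MDM 1 equals 0.860 CPM (counts scaled to the library total). MG 2 and MG 3 stood apart from MG 1 at several loci, named beside each result. Summed over 6 of 6 tumour and progenitor markers, counts ran from 124 to 145 CPM in LL-MG, 74.8 to 102 in MG, 46.9 to 59.8 in LL-MDM and 47.3 to 59.7 in MDM. Over 7 of 9 oligodendrocyte markers, those that passed the filter on low counts, they ran from 311 to 330.4 CPM in LL-MG, 287 to 318 in MG, 319.6 to 347 in LL-MDM and 383 to 405 in MDM. Over 4 of 4 dendritic-cell markers they ran from 404 to 444 CPM in LL-MG, 364 to 404 in MG, 383 to 413 in LL-MDM and 561 to 634 in MDM. Over 5 of 6 astrocyte markers they ran from 227 to 244 CPM in LL-MG, 149.7 to 194 in MG, 158.5 to 179 in LL-MDM and 157.6 to 177 in MDM. Over 2 of 4 endothelial markers they ran from 157.6 to 169 CPM in LL-MG, 138 to 163 in MG, 156 to 172 in LL-MDM and 207 to 226 in MDM. The progenitor gene Sox2 and the oligodendrocyte gene Sox10 were at 0 in LL-MDM 1, no other of these markers was at 0 in any library, and their part in the results was not tested. In sorted pools, a shift in the mixture of cells and a change within each cell cannot be told apart.

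The promoter windows of the genes were read first, since SREBPs bind a sterol regulatory element (SRE) and act beside the factors NF-Y and Sp1. RefSeq promoter windows (GRCm38.p6, the assembly of mm10), from 250 bases before to 50 bases after a start, were at hand for 23 of the 27 genes in 31 windows, and were searched on both strands. The SRE core TCACCCCAC stood in 1 of the 31 windows, that of Hmgcs1, 137 bases before the start (3.23%, against 0.552% of all 32817 windows), and the wider form TCACNCCAC found no other member window (3.23%, against 1.24%). The NF-Y motif CCAAT stood in 20 windows of 19 genes (64.5%, against 37.4%) and the Sp1 motif GGGCGG in 24 windows of 20 genes (77.4%, against 35.6%). The E-box CACGTG, which the SREBPs also bind, stood in 6 windows of Scap, Insig1, Hsd17b7, Sc5d and Dhcr7 (19.4%, against 7.15%). The macrophage factor motif GAGGAAGT of PU.1 stood in 3 windows of Scap and Acat2 (9.68%, against 3.20%), and the LXR element, a direct repeat with a gap, in 0 (against 0.0152%). Only these exact strings were searched, so a window without a match may hold another form of the element. These matches describe letters in the windows and mark no measured binding. The windows of both SREBP genes, of Scap and of both Insig genes are printed here because these genes set the pathway's activity, in lower case from 5′ to 3′ with the SRE, E-box and CCAAT matches of either strand in capitals. The Insig2 window printed here has none of these 3 motifs, and that of Scap has the E-box 40 bases before its start. Another Insig2 window, at a start farther out, holds CCAAT.
Srebf1 promoter window, chr11:60222532-60222831 (minus strand): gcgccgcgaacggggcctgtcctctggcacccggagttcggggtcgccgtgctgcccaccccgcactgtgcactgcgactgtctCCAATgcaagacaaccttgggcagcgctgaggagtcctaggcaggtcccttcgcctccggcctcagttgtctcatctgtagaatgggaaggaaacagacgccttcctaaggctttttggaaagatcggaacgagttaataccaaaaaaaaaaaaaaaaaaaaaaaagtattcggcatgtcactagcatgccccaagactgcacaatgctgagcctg
Srebf2 promoter window, chr15:82147019-82147318 (plus strand): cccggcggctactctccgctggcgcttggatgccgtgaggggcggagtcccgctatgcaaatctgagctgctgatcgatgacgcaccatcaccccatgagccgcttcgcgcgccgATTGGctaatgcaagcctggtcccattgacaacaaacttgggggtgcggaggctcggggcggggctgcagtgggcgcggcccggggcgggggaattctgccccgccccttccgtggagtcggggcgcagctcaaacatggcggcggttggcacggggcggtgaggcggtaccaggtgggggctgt
Scap promoter window, chr9:110333106-110333405 (plus strand): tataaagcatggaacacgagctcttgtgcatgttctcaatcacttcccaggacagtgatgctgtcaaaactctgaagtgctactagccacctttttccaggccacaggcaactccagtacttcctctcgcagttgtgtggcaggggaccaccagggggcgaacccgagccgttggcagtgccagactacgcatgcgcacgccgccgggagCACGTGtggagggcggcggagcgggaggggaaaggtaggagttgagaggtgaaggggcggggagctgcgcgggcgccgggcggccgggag
Insig1 promoter window, chr5:28071162-28071461 (plus strand): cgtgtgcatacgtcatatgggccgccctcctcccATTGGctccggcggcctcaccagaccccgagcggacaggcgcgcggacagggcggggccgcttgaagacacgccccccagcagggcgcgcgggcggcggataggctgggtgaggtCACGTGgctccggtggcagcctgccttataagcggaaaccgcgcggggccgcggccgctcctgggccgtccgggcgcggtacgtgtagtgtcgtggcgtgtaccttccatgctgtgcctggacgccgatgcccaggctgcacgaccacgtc
Insig2 promoter window, chr1:121327629-121327928 (minus strand): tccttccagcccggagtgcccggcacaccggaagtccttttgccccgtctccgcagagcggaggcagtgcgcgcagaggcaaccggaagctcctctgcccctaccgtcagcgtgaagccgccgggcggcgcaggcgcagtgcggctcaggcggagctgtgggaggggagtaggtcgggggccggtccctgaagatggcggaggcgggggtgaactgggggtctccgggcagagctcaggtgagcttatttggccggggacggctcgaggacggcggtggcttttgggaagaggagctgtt

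At locus level 12 of the 26 genes passed the test between at least 1 pair of groups, and 14 passed in none. Between LL-MDM and MDM, 7 of 26 loci passed the test (26.9%, against 23.9% of all 15544 loci). Of them Hmgcs1, Mvd, Fdft1 and Hsd17b7 were higher in LL-MDM (11.7% of all loci were) and Srebf2, Pmvk and Sc5d lower (12.2%). Between LL-MG and MG, 4 of 26 passed (15.4%, against 18.5%), with Insig1, Mvd and Fdft1 higher in LL-MG (9.82% of all loci) and Lss lower (8.63%). Between MG and MDM, 6 of 26 passed (23.1%, against 41%), with Insig2, Lss and Dhcr7 higher in MG (20.4% of all loci) and Srebf2, Pmvk and Msmo1 lower (20.6%). Between LL-MG and LL-MDM, 2 of 26 passed (7.69%, against 20.5%), Insig2 higher in LL-MG (12.1% of all loci) and Pmvk lower (8.43%). The difference of the lipid-load effects between the lineages passed for 2 of 26 (7.69%, against 8.83%), Srebf2 and Pmvk, both positive (5.87% of all loci, with 2.95% negative). The median log2 fold change of the 26 loci was 0.10 for LL-MDM against MDM, -0.02 for LL-MG against MG, -0.04 for MG against MDM and -0.12 for LL-MG against LL-MDM, and that of all loci lay between -0.01 and 0.02. The share of the 26 genes called was near that of all loci for lipid load and lower for lineage. The test throughout is edgeR's quasi-likelihood test with Benjamini-Hochberg adjustment over all loci or all regions, called at an adjusted p under 0.05, and every fold change is a log2 fold change ± standard error. No label ties a library to its own mouse beyond doubt, so p-values here weigh a difference only against the scatter of these 12 libraries, some of which may be technical.

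**Figure D1:**
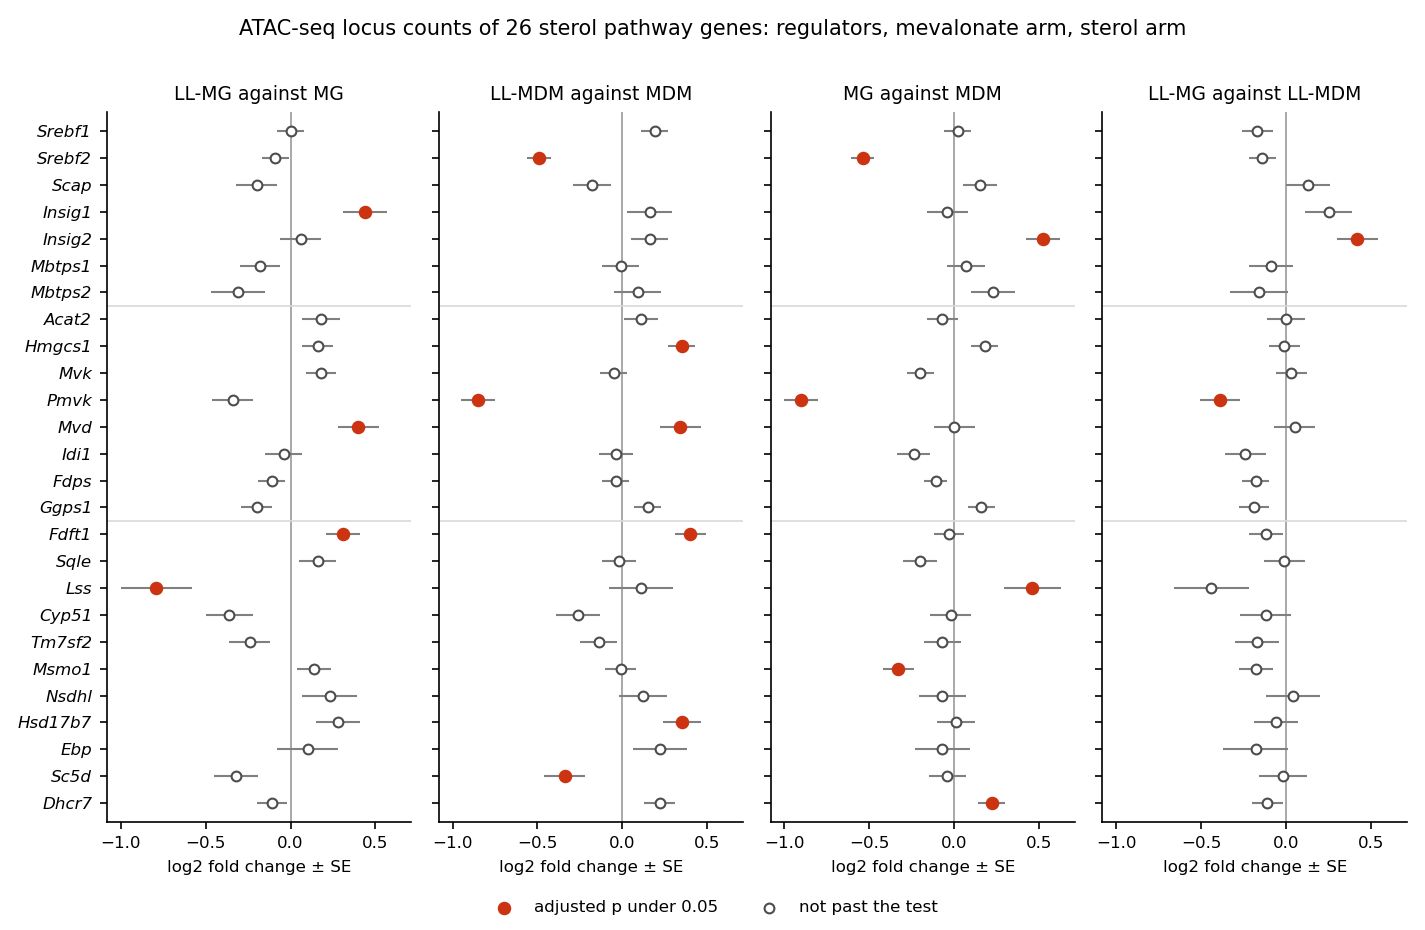
Log2 fold change ± standard error (horizontal axis) of the locus counts of the 26 genes with a region, in the 4 comparisons between groups, ordered as regulators, mevalonate enzymes and sterol enzymes from the top. Filled points passed the test at an adjusted p under 0.05. Pmvk, Srebf2 and Lss reach farthest from 0, and most open points lie close to it.

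Srebf2 encodes SREBP-2, the main activator of the sterol genes, and its locus was lower in LL-MDM and in MG than in MDM. The locus (chr15:82147269-82205379, plus strand, mm10) had 99.7, 114 and 106 CPM in LL-MG, 113, 118 and 109 CPM in MG, 111, 122 and 116 CPM in LL-MDM, and 164, 162 and 169 CPM in MDM. All 3 MDM libraries stood above all 9 others, and the other 3 groups overlapped. The difference was -0.49 ± 0.07, adjusted p = 7.5e-05 for LL-MDM against MDM and -0.54 ± 0.07, adjusted p = 3.1e-06 for MG against MDM. Both calls held with each library left out. LL-MG and MG differed by -0.09 ± 0.08, adjusted p = 0.427. The lipid-load effect in microglia minus that in MDM was 0.4 ± 0.11, adjusted p = 0.0262, a call lost without LL-MDM 1, LL-MDM 3, MDM 1, LL-MG 2, LL-MG 3 or MG 3 (adjusted p = 0.0549 to 0.0953), after thinning all libraries to the smallest one (0.25, adjusted p = 0.47) and with MG 1 as the only MG library (0.38, adjusted p = 0.0965).

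At Srebf2 the promoter region did not pass, and regions inside the gene did. The region over the gene start (chr15:82146804-82147440), which holds the window printed above and is shared with the neighbouring gene Ccdc134, had 68.3, 66.1 and 65.2 CPM in LL-MG, 68.7, 79.8 and 67.9 CPM in MG, 61.8, 64.5 and 66.7 CPM in LL-MDM, and 63.2, 60.3 and 72.5 CPM in MDM. It passed in no comparison (LL-MDM against MDM -0.01 ± 0.12, adjusted p = 0.974, MG against MDM 0.16 ± 0.11, adjusted p = 0.253). The 15 other regions of the locus summed to 28.98, 41.8 and 37.1 CPM in LL-MG, 44.3, 55.5 and 47.6 CPM in MG, 48.2, 54.7 and 49.4 CPM in LL-MDM, and 95.5, 97.3 and 97.04 CPM in MDM. Of these 15 regions, 11 had been named as peaks for MDM alone in the region identifiers. That MDM is highest in their sum, and in the locus count that holds it, is therefore a description that their choice can favour. The region 1.5 kb inside the gene (chr15:82148675-82148860) had 3.03, 2.696 and 3.12 CPM in LL-MG, 2.83, 1.802 and 2.56 CPM in MG, 1.69, 3.73 and 3.598 CPM in LL-MDM, and 10.9, 10.8 and 10.8 CPM in MDM. All MDM libraries exceeded all others, with -2.23 ± 0.26, adjusted p = 1.62e-08 for MG against MDM and -1.66 ± 0.26, adjusted p = 8.98e-06 for LL-MDM against MDM. The region 16.6 kb inside (chr15:82163717-82163982) had 1.297, 2.25 and 2.43 CPM in LL-MG, 4.96, 3.77 and 3.03 CPM in MG, 6.77, 3.46 and 2.94 CPM in LL-MDM, and 12.5, 11.9 and 13.2 CPM in MDM. It differed by -1.73 ± 0.26, adjusted p = 6.81e-06 for LL-MDM against MDM and by -1.71 ± 0.25, adjusted p = 5.94e-07 for MG against MDM. These 4 calls held with each library left out. Regions 4.9 and 49.3 kb inside, chosen after their values were seen, were also lower in MG than in MDM, at -1.9 ± 0.25 and -2.18 ± 0.26. Of these 4, the regions 1.5 and 4.9 kb inside had been named for MDM alone and the other 2 for all groups but LL-MG.

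A narrow region 19.1 kb inside Srebf2 (chr15:82166297-82166384) had no count in any LL-MG library. It had 1.06, 3.11 and 1.399 CPM in MG, 2.54, 1.73 and 1.31 CPM in LL-MDM, and 3.28, 3.12 and 4.25 CPM in MDM, from 0 counts in all in LL-MG, 28 in MG, 20 in LL-MDM and 133 in MDM. Against a floor of 3 counts over the group, it was at least 5.24-fold lower in LL-MG than in MG and at least 4.21-fold lower than in LL-MDM (adjusted p = 0.00395 and 0.0024). No library left out ended these calls in the 10 of 12 fits in which the region passed the filter, but DESeq2 gave the first no adjusted p. It was also lost with MG 1 as the only MG library (adjusted p = 0.413). Counts this low rest on few fragments, and intervals and floors cover counting error only, since PCR copies are not told from separate fragments.

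Srebf2 also hosts Mir33 (hairpin chr15:82198122-82198190, plus strand), whose mature products repress cholesterol export genes such as Abca1. They are printed with the seed, bases 2 to 8, in capitals because the hairpin lies in the locus that differs. The nearest counted region (chr15:82198437-82198601) starts 247 bp from the hairpin and had 0, 0.899 and 0.694 CPM in LL-MG, 0, 3.44 and 1.87 CPM in MG, 0.846, 2.53 and 2.62 CPM in LL-MDM, and 2.93, 3.63 and 3.43 CPM in MDM. It passed in no comparison, and 2 of its 12 libraries held no count.
miR-33-5p: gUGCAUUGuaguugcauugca
miR-33-3p: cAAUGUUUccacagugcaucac

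**Figure D2:**
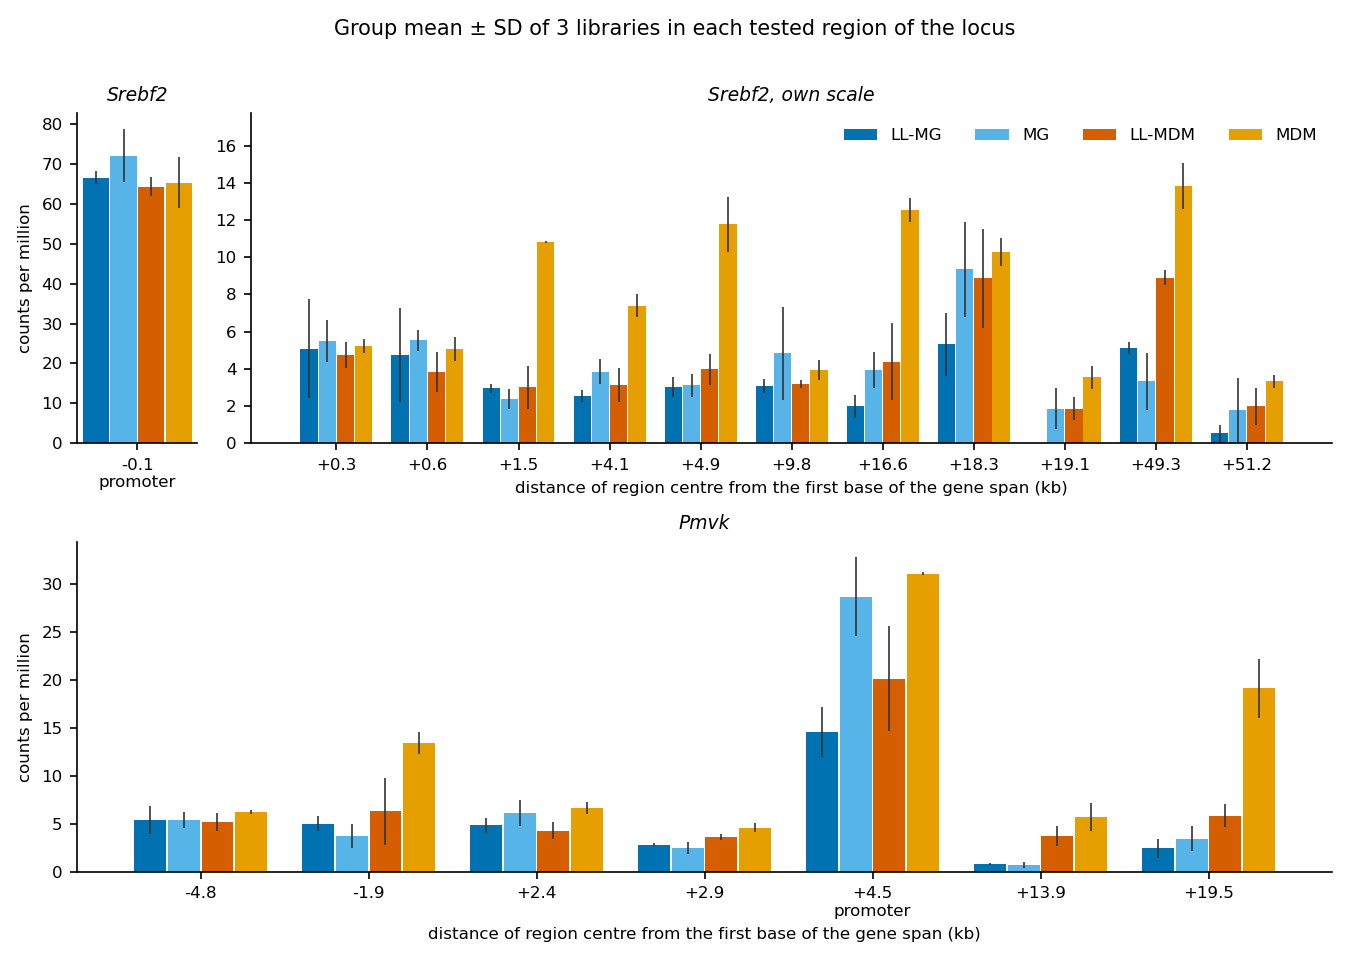
Mean ± SD of 3 libraries per group (vertical axis, CPM) in each tested region of Srebf2 (top, with the promoter region on a scale of its own) and Pmvk (bottom), placed in order of distance from the first base of the gene span in kb. The promoter region of Srebf2 is alike in all groups, while MDM is highest in 5 regions inside the gene that passed the test against MG and in the Pmvk regions at -1.9, +13.9 and +19.5 kb.

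Srebf1 encodes SREBP-1, the paralogue that mainly drives fatty acid synthesis, and its locus passed in no comparison. The locus (chr11:60199084-60224186, minus strand) had 88.6, 106 and 107 CPM in LL-MG, 101, 101 and 101 CPM in MG, 116, 112 and 113 CPM in LL-MDM, and 99.1, 96.9 and 102 CPM in MDM. The 3 LL-MDM libraries were the highest of the 12, yet the difference did not pass (0.19 ± 0.08, adjusted p = 0.0761 against MDM). A region 0.8 kb inside the gene (chr11:60219735-60219939) had 2.595, 4.49 and 6.94 CPM in LL-MG, 4.61, 5.73 and 5.36 CPM in MG, 11.8, 9.05 and 9.49 CPM in LL-MDM, and 10.5, 8.46 and 10.1 CPM in MDM. It was lower in both microglial groups, at -0.85 ± 0.24, adjusted p = 0.00299 for MG against MDM and -1.0 ± 0.3, adjusted p = 0.0145 for LL-MG against LL-MDM. The second of these was lost without LL-MG 1 or LL-MG 2 (adjusted p = 0.0653 to 0.141). That these groups are low there is a description that the choice can favour, since this Srebf1 region had been named for LL-MDM and MDM alone. A region just before the outermost of its 3 starts (chr11:60222761-60223227, shared with Tom1l2) overlaps only the upstream end of the window printed above, short of its CCAAT. In it the libraries had 25.5, 31.01 and 30.9 CPM in LL-MG, 27.3, 33.1 and 27.3 CPM in MG, 31.3, 27.7 and 26.5 CPM in LL-MDM, and 21.99, 21.97 and 19.8 CPM in MDM. There no library of MG was as low as any of MDM (0.46 ± 0.14, adjusted p = 0.00526), a call lost without MG 2 (adjusted p = 0.0546), with MG 1 alone (0.34, adjusted p = 0.184) and with thinned libraries (0.39, adjusted p = 0.221). This region was also higher in LL-MDM than in MDM, a call lost under 15 of 21 alternative fits, among them DESeq2 and thinned libraries. The regions at the other 2 starts of Srebf1 passed in no comparison.

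Scap, the sterol-sensing escort of the SREBPs, passed in no comparison at locus level. It (chr9:110333288-110384949, plus strand) had 40.8, 51.1 and 37.8 CPM in LL-MG, 49.1, 50.03 and 48.6 CPM in MG, 29.8, 40.3 and 42.4 CPM in LL-MDM, and 43.1, 45.9 and 44.2 CPM in MDM. The groups overlapped or lay close together, with -0.2 ± 0.12, adjusted p = 0.251 for LL-MG against MG and -0.18 ± 0.11, adjusted p = 0.255 for LL-MDM against MDM. Scap also had a region 19154 bp from its start that was higher in MG than in MDM, a call lost under 16 of 20 alternative fits. Its start region (chr9:110333150-110333888), over the E-box of the window printed above, had 29.4, 33.2 and 26.01 CPM in LL-MG, 35.1, 47.7 and 38.5 CPM in MG, 24.6, 31.5 and 31.1 CPM in LL-MDM, and 29.9, 34.4 and 36.4 CPM in MDM. It was lower in LL-MG than in MG (-0.48 ± 0.16, adjusted p = 0.0403), but this call was lost without LL-MDM 1, LL-MDM 2, LL-MDM 3, MDM 1, MDM 2, LL-MG 1, LL-MG 2, LL-MG 3, MG 2 or MG 3 (adjusted p = 0.0658 to 0.309) and with MG 1 alone (-0.26, adjusted p = 0.788).

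Insig1, an endoplasmic reticulum anchor of SCAP that is itself an SREBP target, was higher in LL-MG than in MG. Its locus (chr5:28071412-28078662, plus strand) is 1 region over the gene start and had 147, 130.1 and 145 CPM in LL-MG, 137, 81.96 and 101 CPM in MG, 115, 118 and 122 CPM in LL-MDM, and 104, 104 and 114 CPM in MDM. LL-MG and MG overlapped, because MG 1 stood with the LL-MG libraries and MG 2 and MG 3 below them. The difference was 0.44 ± 0.13, adjusted p = 0.0341, and it was lost without LL-MDM 3, LL-MG 1, LL-MG 2, LL-MG 3, MG 2 or MG 3 (adjusted p = 0.0555 to 0.126). With MG 1 as the only MG library it was 0.03, adjusted p = 0.971, and with thinned libraries 0.42, adjusted p = 0.0713. LL-MDM and MDM differed by 0.16 ± 0.13, adjusted p = 0.413. Insig2, the second anchor, differed by lineage. Its locus (chr1:121304353-121332662, minus strand) had 61.6, 50.2 and 65.5 CPM in LL-MG, 54.7, 58.3 and 57.6 CPM in MG, 44.3, 41.9 and 48.2 CPM in LL-MDM, and 42.7, 41.4 and 34.3 CPM in MDM. Every MG library exceeded every MDM library and every LL-MG library exceeded every LL-MDM library. The differences were 0.52 ± 0.1, adjusted p = 0.000356 for MG against MDM, which no library left out ended, and 0.42 ± 0.12, adjusted p = 0.0187 for LL-MG against LL-MDM, which was lost without LL-MDM 2, LL-MG 1 or LL-MG 3 (adjusted p = 0.0705 to 0.131) and with thinned libraries (0.43, adjusted p = 0.102).

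The start region of Insig2 (chr1:121327591-121328388) carried most of that difference. It covers the window printed above, which has no match of the SRE, E-box or CCAAT. It had 49.7, 39.1 and 51.3 CPM in LL-MG, 43.9, 52.8 and 52.2 CPM in MG, 33.9, 33.1 and 40.2 CPM in LL-MDM, and 33.1, 30.9 and 27.8 CPM in MDM. MG exceeded MDM by 0.7 ± 0.13, adjusted p = 2.69e-05, with no overlap and no library that ended the call. A region 12.6 kb farther in (chr1:121314992-121315075) had 1.73, 2.696 and 4.51 CPM in LL-MG, 2.13, 2.29 and 0.6996 CPM in MG, 0.846, 1.06 and 2.94 CPM in LL-MDM, and 0.349, 0.415 and 0.163 CPM in MDM. It was higher in MG and in LL-MDM than in MDM (2.24 ± 0.57, adjusted p = 0.00129, and 2.11 ± 0.61, adjusted p = 0.0085), and in the 6 of 12 fits in which the region passed the filter, leaving out LL-MDM 3 ended the second call (adjusted p = 0.18). The groups for which this inner Insig2 region was named as a peak are uncertain, so its choice can favour such differences. The Golgi proteases of the SREBPs, Mbtps1 and Mbtps2, passed in no comparison at locus level, with 48.0 to 66.6 CPM and 19.8 to 31.1 CPM over the 12 libraries. All counts of Mbtps1 are shared with its neighbour Hsdl1.

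Among the 8 enzymes that turn acetyl-CoA into the isoprenoid diphosphates, Pmvk, Hmgcs1 and Mvd changed at locus level. Their windows are set side by side with those of 2 later enzymes, Lss and Msmo1, described further on. Hmgcs1 has the only match of the SRE core among the windows searched. The Pmvk window printed here, that of its inner start, has no match of the SRE, E-box or CCAAT. The Pmvk window of the outer start holds CCAAT. The windows of Lss and Msmo1 match CCAAT alone of these motifs. Capitals mark the same 3 motifs.
Hmgcs1 promoter window, chr13:119690101-119690400 (plus strand): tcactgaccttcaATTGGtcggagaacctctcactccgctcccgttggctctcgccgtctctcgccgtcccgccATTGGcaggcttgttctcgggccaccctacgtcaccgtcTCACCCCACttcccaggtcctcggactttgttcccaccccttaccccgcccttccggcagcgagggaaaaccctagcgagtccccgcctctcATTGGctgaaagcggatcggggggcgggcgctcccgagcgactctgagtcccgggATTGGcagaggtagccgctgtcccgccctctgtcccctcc
Pmvk promoter window, chr3:89459321-89459620 (plus strand): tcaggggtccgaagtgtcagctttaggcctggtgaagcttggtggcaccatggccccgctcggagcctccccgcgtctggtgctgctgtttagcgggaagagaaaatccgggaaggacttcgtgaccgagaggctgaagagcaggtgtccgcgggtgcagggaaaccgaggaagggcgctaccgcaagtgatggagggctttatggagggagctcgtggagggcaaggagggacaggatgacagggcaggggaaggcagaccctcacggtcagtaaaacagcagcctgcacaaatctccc
Lss promoter window, chr10:76531355-76531654 (plus strand): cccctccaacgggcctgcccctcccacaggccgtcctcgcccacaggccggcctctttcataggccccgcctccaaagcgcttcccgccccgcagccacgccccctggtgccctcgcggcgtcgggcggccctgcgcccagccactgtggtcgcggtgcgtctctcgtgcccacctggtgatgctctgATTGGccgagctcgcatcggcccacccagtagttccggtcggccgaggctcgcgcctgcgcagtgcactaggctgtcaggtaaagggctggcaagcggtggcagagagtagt
Msmo1 promoter window, chr8:64733529-64733828 (minus strand): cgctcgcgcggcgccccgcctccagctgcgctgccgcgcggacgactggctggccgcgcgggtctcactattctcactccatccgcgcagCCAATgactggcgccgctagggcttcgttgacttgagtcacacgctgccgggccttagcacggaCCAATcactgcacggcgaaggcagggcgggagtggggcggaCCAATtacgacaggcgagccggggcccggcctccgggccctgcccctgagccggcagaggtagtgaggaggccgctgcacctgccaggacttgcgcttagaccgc

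Pmvk encodes phosphomevalonate kinase, and its locus was lower in LL-MDM and in MG than in MDM, the largest fold changes of the 26 genes in these comparisons. It (chr3:89454541-89469014, plus strand) had 36.3, 37.9 and 37.8 CPM in LL-MG, 48.03, 47.04 and 46.8 CPM in MG, 56.3, 53.04 and 39.1 CPM in LL-MDM, and 85.7, 87.2 and 92.4 CPM in MDM. The 3 MDM libraries stood above all others and the 3 LL-MG libraries below all others, while MG and LL-MDM overlapped. The differences were -0.85 ± 0.1, adjusted p = 5.25e-06 for LL-MDM against MDM and -0.9 ± 0.1, adjusted p = 1.5e-07 for MG against MDM, and no library left out ended either. LL-MG against LL-MDM gave -0.39 ± 0.12, adjusted p = 0.0288, lost without LL-MDM 1, LL-MDM 2, LL-MG 1, LL-MG 2 or LL-MG 3 (adjusted p = 0.0676 to 0.256) and with thinned libraries (-0.35, adjusted p = 0.217). LL-MG against MG gave -0.34 ± 0.12, adjusted p = 0.0533. The lipid-load effect in microglia minus that in MDM was 0.51 ± 0.16, adjusted p = 0.0466. It was lost without LL-MDM 3, MDM 1, MDM 2, MDM 3, LL-MG 1, LL-MG 2, LL-MG 3, MG 2 or MG 3 (adjusted p = 0.0633 to 0.176), and without the 5 kb flank it was 0.06, adjusted p = 0.942.

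The regions of Pmvk did not move alike. A region 1.9 kb before the span (chr3:89452428-89452829, shared with Pbxip1) had 4.33, 5.84 and 4.86 CPM in LL-MG, 4.61, 2.29 and 4.198 CPM in MG, 10.2, 5.46 and 3.27 CPM in LL-MDM, and 14.1, 12.1 and 14.1 CPM in MDM. MDM exceeded all others there (-1.93 ± 0.27, adjusted p = 3.06e-07 for MG against MDM, -1.29 ± 0.26, adjusted p = 0.000322 for LL-MDM against MDM). A region 19.5 kb from the span's first base, in its flank (chr3:89473859-89474241), had 1.73, 3.595 and 2.08 CPM in LL-MG, 4.96, 2.62 and 2.798 CPM in MG, 5.92, 7.05 and 4.58 CPM in LL-MDM, and 15.6, 20.4 and 21.4 CPM in MDM. It gave -2.54 ± 0.25, adjusted p = 5.25e-10 for MG against MDM and -1.63 ± 0.24, adjusted p = 3.75e-06 for LL-MDM against MDM, again with no overlap. The region just before the inner start (chr3:89458752-89459387) overlaps only the upstream end of the window printed above. It showed a different order, with 14.3, 12.1 and 17.3 CPM in LL-MG, 26.2, 33.4 and 26.4 CPM in MG, 25.4, 20.6 and 14.4 CPM in LL-MDM, and 31.1, 30.9 and 31.2 CPM in MDM. There every LL-MG library was below every MG library (-0.98 ± 0.19, adjusted p = 0.00212), and no library left out ended this call, though with MG 1 alone it was -0.83, adjusted p = 0.191. LL-MDM was below MDM as well (-0.68 ± 0.17, adjusted p = 0.00205), a call lost without LL-MDM 3 (adjusted p = 0.0545). MG and MDM did not pass there (-0.1 ± 0.15, adjusted p = 0.607). The region 13.9 kb inside (chr3:89468341-89468613) separated the lineages, with 0.865, 0.899 and 0.694 CPM in LL-MG, 0.354, 0.819 and 0.933 CPM in MG, 2.54, 3.99 and 4.58 CPM in LL-MDM, and 4.54, 5.19 and 7.35 CPM in MDM. It was lower in microglia at both lipid states, by -2.83 ± 0.38, adjusted p = 2.05e-07 for MG against MDM and -2.27 ± 0.52, adjusted p = 0.0017 for LL-MG against LL-MDM. That region had been named as a peak for LL-MDM and MDM alone, and that 1.9 kb before the span for MDM alone. The one 19.5 kb from the span's first base had been named for all groups but LL-MG. That the named groups are highest there is therefore a description that the choice can favour.

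Hmgcs1 encodes HMG-CoA synthase, an early enzyme of the route, and was higher in LL-MDM than in MDM. Its locus (chr13:119690351-119708260, plus strand) had 105, 104 and 103 CPM in LL-MG, 92.2, 91.2 and 96.3 CPM in MG, 98.9, 107 and 106 CPM in LL-MDM, and 80.2, 76.4 and 92.7 CPM in MDM. LL-MDM and MDM did not overlap, and neither did LL-MG and MG. The difference was 0.35 ± 0.08, adjusted p = 0.00388 for LL-MDM against MDM, which no library left out ended but thinned libraries did (0.34, adjusted p = 0.0786). LL-MG against MG did not pass (0.16 ± 0.09, adjusted p = 0.202). The start region (chr13:119689983-119690809), over the window with the SRE, had 95.1, 91.2 and 90.5 CPM in LL-MG, 86.5, 101 and 97.01 CPM in MG, 93.1, 96.1 and 100.4 CPM in LL-MDM, and 75.3, 71.6 and 89.7 CPM in MDM. It gave 0.3 ± 0.11, adjusted p = 0.0414 for LL-MDM against MDM, lost without LL-MDM 1, LL-MDM 2, LL-MDM 3, MDM 1, MDM 2, LL-MG 1, LL-MG 2 or LL-MG 3 (adjusted p = 0.0573 to 0.241). The other region, 22.9 kb from the start and shared with Nim1k (chr13:119713181-119713384), had 7.79, 7.64 and 8.32 CPM in LL-MG, 6.02, 3.77 and 4.66 CPM in MG, 5.08, 9.05 and 5.89 CPM in LL-MDM, and 2.16, 2.65 and 3.43 CPM in MDM. It gave 1.47 ± 0.27, adjusted p = 9.53e-05 for LL-MDM against MDM, lost without LL-MDM 2 (adjusted p = 0.0527). Both regions of Hmgcs1 were also higher in MG than in MDM. At 22.9 kb that call was lost in DESeq2 and without MDM 1, MDM 2, MG 1 or MG 3. The Hmgcs1 locus did not pass for MG against MDM (0.18 ± 0.08, adjusted p = 0.0837).

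Mvd encodes the decarboxylase that makes isopentenyl diphosphate, and was higher in both lipid-laden groups. Its locus (chr8:122433596-122443422, minus strand), of whose counts 62.9% are shared with neighbours such as Cyba, had 353, 361 and 294 CPM in LL-MG, 314, 219.8 and 233 CPM in MG, 344, 315 and 315 CPM in LL-MDM, and 253, 230.5 and 281 CPM in MDM. LL-MDM and MDM did not overlap (0.34 ± 0.12, adjusted p = 0.0413), and LL-MG and MG overlapped through MG 1 (0.4 ± 0.12, adjusted p = 0.0302). The first call was lost without LL-MDM 1, LL-MDM 2, LL-MDM 3, MDM 1, MDM 2, LL-MG 1 or LL-MG 2 (adjusted p = 0.0507 to 0.158). The second was lost without LL-MG 1, LL-MG 2, MG 2 or MG 3 (adjusted p = 0.105 to 0.115). It was also lost with unshared regions alone, which did not end the first. With MG 1 as the only MG library the second difference was 0.08. The strongest region (chr8:122436713-122436854) lies 6.6 kb inside and is shared with the span or 5 kb flank of Cyba. It had 7.79, 6.29 and 6.94 CPM in LL-MG, 3.19, 2.29 and 3.27 CPM in MG, 15.2, 13.8 and 15.4 CPM in LL-MDM, and 4.61, 3.53 and 5.23 CPM in MDM. Each lipid-laden group exceeded its counterpart with no overlap, by 1.75 ± 0.22, adjusted p = 4.06e-07 for LL-MDM against MDM and 1.3 ± 0.31, adjusted p = 0.0079 for LL-MG against MG, the second lost without MG 2 (adjusted p = 0.0591). The groups for which this shared region was named as a peak are uncertain, so its choice can favour such differences. The start region (chr8:122443343-122443950) gave 0.38 ± 0.12, adjusted p = 0.015 for LL-MDM against MDM, lost without LL-MDM 1, LL-MDM 3, MDM 1 or MDM 2 (adjusted p = 0.0586 to 0.136). It was also higher in MG than in MDM, a call lost under 19 of 21 alternative fits. The genes of the thiolase Acat2 (47.7 to 65.3 CPM over the 12 libraries), mevalonate kinase Mvk (68.4 to 88.0), the isomerase Idi1 (53.5 to 85.2), farnesyl diphosphate synthase Fdps (108 to 141) and geranylgeranyl diphosphate synthase Ggps1 (127 to 165) passed in no comparison at locus level. Neighbours share 93.8% of the counts of Mvk, 98.1% of those of Ggps1 and 52.2% of those of Fdps.

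Of the 11 enzymes from squalene to cholesterol, Fdft1, Lss, Msmo1, Hsd17b7, Sc5d and Dhcr7 passed in at least 1 comparison. Fdft1 encodes squalene synthase, the first enzyme committed to sterols, and its locus (chr14:63145150-63181687, minus strand) had 83.7, 93.2 and 79.5 CPM in LL-MG, 73.5, 64.99 and 69.5 CPM in MG, 92.9, 88.5 and 97.1 CPM in LL-MDM, and 68.1, 65.3 and 78.9 CPM in MDM. All 6 lipid-laden libraries stood above all 6 others. The differences were 0.4 ± 0.09, adjusted p = 0.0031 for LL-MDM against MDM, which no library left out ended, and 0.31 ± 0.1, adjusted p = 0.0364 for LL-MG against MG, which was lost without LL-MDM 3, LL-MG 1, LL-MG 2, LL-MG 3, MG 2 or MG 3 (adjusted p = 0.0542 to 0.185) and with MG 1 alone (0.20, adjusted p = 0.753). However, 91.0% of these counts are shared with Ctsb, the cathepsin B gene, or Neil2, and with unshared regions alone the locus gave 0.48, adjusted p = 0.155 and 0.54, adjusted p = 0.204. The strongest region (chr14:63148611-63148853) is shared with the span or 5 kb flank of Ctsb. It had 11.7, 16.2 and 17.7 CPM in LL-MG, 9.57, 5.57 and 8.16 CPM in MG, 17.8, 12.9 and 12.8 CPM in LL-MDM, and 6.004, 4.93 and 6.04 CPM in MDM. It gave 1.3 ± 0.23, adjusted p = 4.69e-05 for LL-MDM against MDM and 1.03 ± 0.25, adjusted p = 0.00803 for LL-MG against MG, the second lost without LL-MG 3 (adjusted p = 0.0541). Which of the 2 genes such a region serves was not tested.

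**Figure D3:**
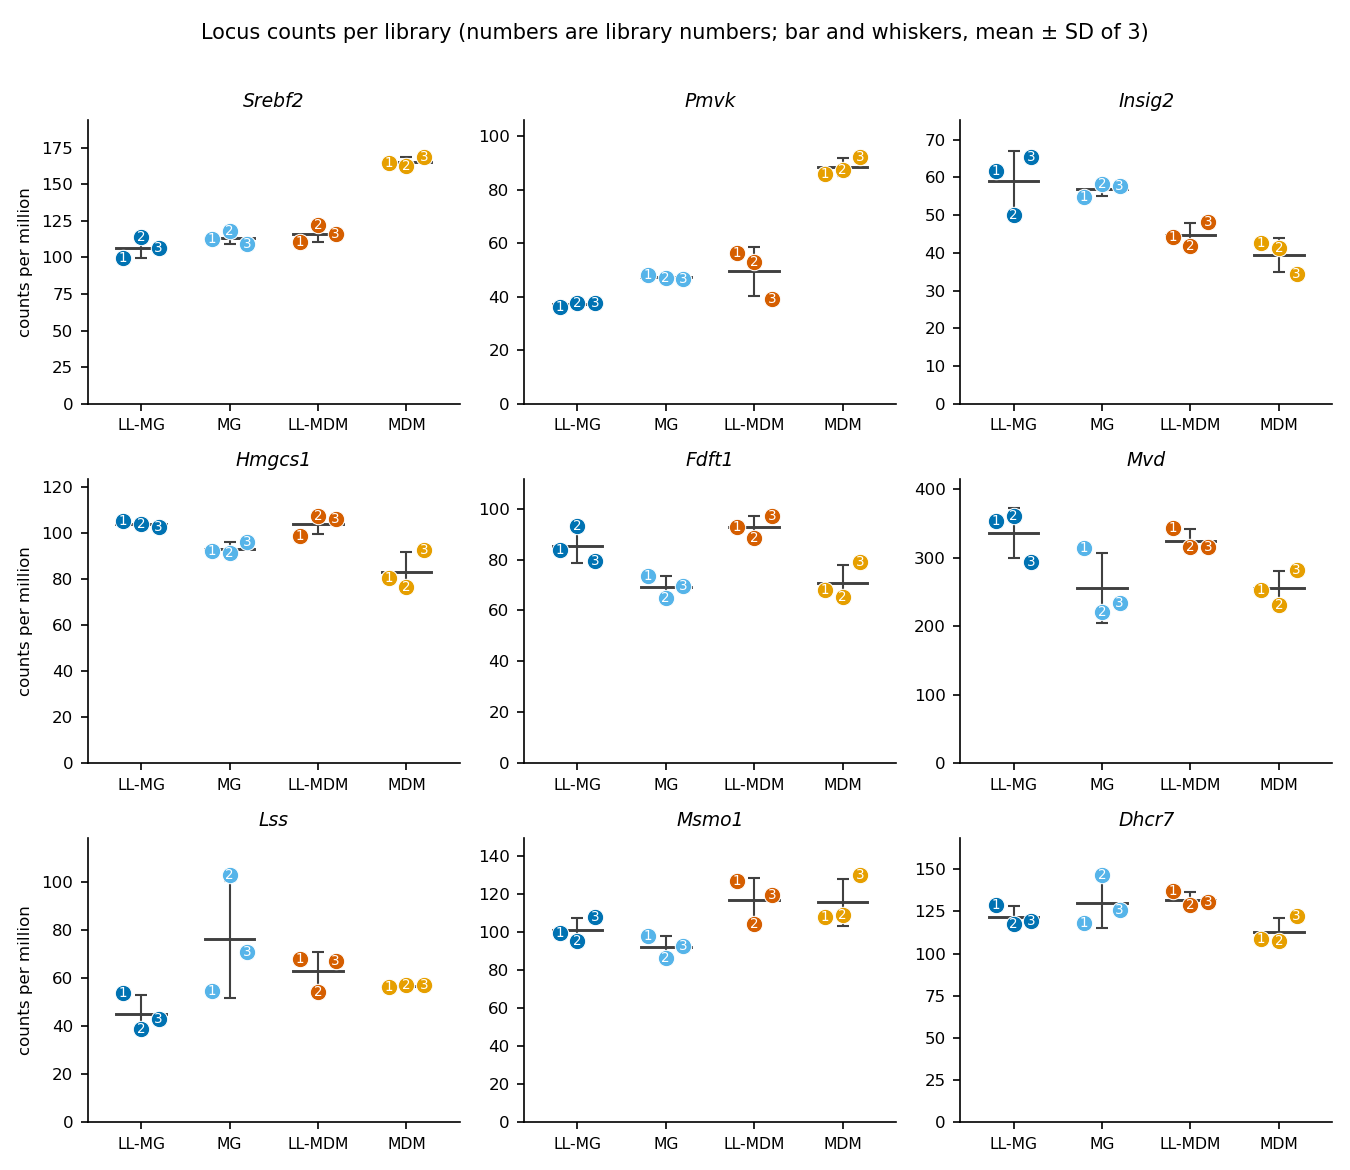
Locus counts in CPM (vertical axis, from 0) of 9 genes in each of the 12 libraries, with the library number in each point and bars and whiskers for mean ± SD of 3. MDM stands above the others for Srebf2 and Pmvk, the 2 lipid-laden groups stand above their counterparts for Hmgcs1 and Fdft1, and MG 2 is far above MG 1 for Lss.

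Lss encodes lanosterol synthase, which closes the sterol rings, and its regions moved in different ways. Its locus (chr10:76531565-76557139, plus strand) had 54.05, 38.8 and 43.2 CPM in LL-MG, 54.7, 103 and 70.9 CPM in MG, 68.2, 54.4 and 67.1 CPM in LL-MDM, and 56.3, 57.1 and 57.4 CPM in MDM. MG 2 was the highest library and MG 1 lay among the libraries of MDM and LL-MDM, so that MG overlapped these 2 groups and stood above LL-MG by a narrow gap. The locus was lower in LL-MG than in MG (-0.79 ± 0.21, adjusted p = 0.0229), a call lost without LL-MG 2 or LL-MG 3 (adjusted p = 0.0813 to 0.082) and with MG 1 alone (-0.29, adjusted p = 0.659). It was higher in MG than in MDM (0.46 ± 0.17, adjusted p = 0.0463), which was lost without LL-MDM 1, MDM 1, MDM 2, MDM 3, LL-MG 2, LL-MG 3 or MG 2 (adjusted p = 0.0513 to 0.164) and turned to -0.03, adjusted p = 0.891 with MG 1 alone. The start region (chr10:76531047-76531820), over the window printed above, had 43.2, 31.9 and 35.4 CPM in LL-MG, 44.6, 57.3 and 40.3 CPM in MG, 41.5, 32.3 and 45.1 CPM in LL-MDM, and 22.7, 24.1 and 24.5 CPM in MDM. Here the 3 MDM libraries were below all 9 others. MG against MDM gave 1.01 ± 0.14, adjusted p = 3.99e-07, LL-MDM against MDM 0.7 ± 0.15, adjusted p = 0.000615, and the lipid-load effect in microglia minus that in MDM -1.08 ± 0.22, adjusted p = 0.00166. All 3 held with each library left out. Deeper in, a region in the middle of the gene (chr10:76542681-76543280) had 8.65, 4.94 and 6.24 CPM in LL-MG, 8.15, 41.1 and 24.9 CPM in MG, 20.3, 17.7 and 17.3 CPM in LL-MDM, and 21.7, 22.3 and 24.3 CPM in MDM. MG 2 and MG 3 were well above LL-MG there and MG 1 was not, and LL-MG against MG (-1.99 ± 0.53, adjusted p = 0.0406) was lost without LL-MDM 1, LL-MDM 3, LL-MG 1, LL-MG 2, LL-MG 3 or MG 3 (adjusted p = 0.0553 to 0.126). At 9.9 kb (chr10:76541412-76541660) the libraries had 0.865, 0 and 0 CPM in LL-MG, 2.13, 19.8 and 9.56 CPM in MG, 5.92, 3.19 and 4.91 CPM in LL-MDM, and 9.91, 9.14 and 8.82 CPM in MDM. LL-MG held almost no count there, and the call against MG (adjusted p = 0.0209) was lost without LL-MG 1, LL-MG 2 or LL-MG 3 (adjusted p = 0.0665 to 0.074). This last region had been named as a peak for all groups but LL-MG, a choice that can favour a low LL-MG.

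**Figure D4:**
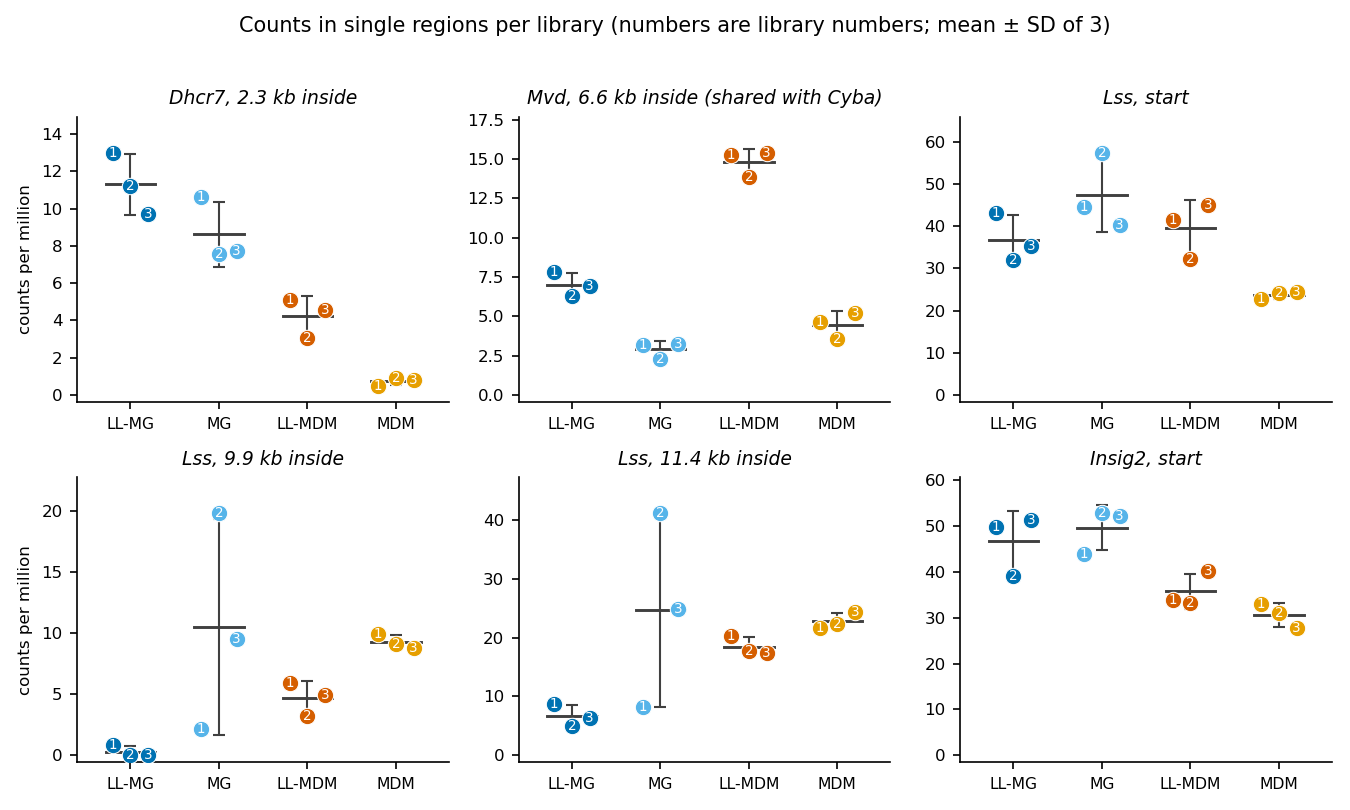
Counts in CPM (vertical axis, from 0) in 6 single regions in each of the 12 libraries, with the library number in each point and bars and whiskers for mean ± SD of 3. The group means of the region inside Dhcr7 run down in the order LL-MG, MG, LL-MDM, MDM, the region shared by Mvd and Cyba is highest in LL-MDM, and the spread of MG in the 2 inner Lss regions comes from MG 2 and MG 3.

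Msmo1 encodes the methylsterol oxidase, and was lower in MG than in MDM. Its locus (chr8:64718123-64733578, minus strand) had 99.7, 95.1 and 108 CPM in LL-MG, 97.8, 86.1 and 92.7 CPM in MG, 127, 104 and 119.6 CPM in LL-MDM, and 108, 109 and 129.8 CPM in MDM. MG and MDM did not overlap (-0.33 ± 0.09, adjusted p = 0.00602). No library left out ended the call, but MG 1 alone (-0.20, adjusted p = 0.21) and thinned libraries (-0.17, adjusted p = 0.37) did. The difference sat in a region 7.2 kb inside (chr8:64726084-64726743), with 48.9, 51.2 and 55.8 CPM in LL-MG, 46.4, 34.7 and 45.2 CPM in MG, 57.6, 57.3 and 62.5 CPM in LL-MDM, and 59.1, 59.2 and 73.3 CPM in MDM. All MG libraries were below all MDM libraries there (-0.61 ± 0.13, adjusted p = 0.000151), and the start region (chr8:64733337-64733966), over the CCAAT window printed above, passed in no comparison (0.2 ± 0.14, adjusted p = 0.215).

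Hsd17b7 encodes a ketoreductase of sterol demethylation, and was higher in LL-MDM than in MDM. Its locus (chr1:169949535-169969242, minus strand), whose counts are all shared with Ddr2, had 63.8, 44.5 and 48.9 CPM in LL-MG, 38.5, 44.2 and 45.5 CPM in MG, 58.8, 49.4 and 59.6 CPM in LL-MDM, and 43.6, 41.8 and 43.2 CPM in MDM. LL-MDM and MDM did not overlap (0.35 ± 0.11, adjusted p = 0.0291), and the call was lost without LL-MDM 1, LL-MDM 3, MDM 1, MDM 2 or MDM 3 (adjusted p = 0.0569 to 0.159). The region at its start (chr1:169968887-169969507) gave 0.38 ± 0.14, adjusted p = 0.0337, lost without LL-MDM 1, LL-MDM 3, MDM 1 or MDM 2 (adjusted p = 0.107 to 0.205). Sc5d encodes the desaturase that acts near the end of the route, and was lower in LL-MDM than in MDM. Its locus (chr9:42251592-42264300, minus strand) had 29.7, 24.1 and 26.99 CPM in LL-MG, 34.6, 34.4 and 32.01 CPM in MG, 28.98, 27.2 and 26.7 CPM in LL-MDM, and 32.4, 33.6 and 38.5 CPM in MDM. Each lipid-laden group lay below its counterpart with no overlap, and the differences were -0.34 ± 0.12, adjusted p = 0.0463 for LL-MDM against MDM and -0.32 ± 0.13, adjusted p = 0.0951 for LL-MG against MG. The call was lost without LL-MDM 1, LL-MDM 2, LL-MDM 3, MDM 1, MDM 2, MDM 3, LL-MG 1, LL-MG 3 or MG 3 (adjusted p = 0.0506 to 0.166) and under 8 other processing choices besides the groups of the titles. Its start region passed in no comparison (-0.28 ± 0.15, adjusted p = 0.161 for LL-MDM against MDM). A region 17377 bp from the start was lower in MG than in MDM, a call lost under 3 of 20 alternative fits.

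Dhcr7 encodes the reductase of the last step to cholesterol, and a region inside it separated MDM, LL-MDM and the microglial groups. Its locus (chr7:143823167-143848410, plus strand) had 129, 117 and 119 CPM in LL-MG, 118, 146 and 126 CPM in MG, 137, 128 and 130.4 CPM in LL-MDM, and 108, 108 and 122 CPM in MDM. MG and MDM overlapped, and the difference (0.22 ± 0.08, adjusted p = 0.0376) was lost without LL-MDM 2, MDM 1, MDM 2 or MG 2 (adjusted p = 0.0501 to 0.148) and with MG 1 alone (0.10, adjusted p = 0.547). The region 2.3 kb inside from the nearest start (chr7:143832418-143832567) had 12.97, 11.2 and 9.71 CPM in LL-MG, 10.6, 7.54 and 7.695 CPM in MG, 5.08, 3.06 and 4.58 CPM in LL-MDM, and 0.489, 0.883 and 0.817 CPM in MDM. MDM was lowest, LL-MDM stood between, and LL-MG and MG were highest, with overlap between LL-MG and MG alone. MG against MDM gave 3.5 ± 0.31, adjusted p = 3.6e-11, LL-MDM against MDM 2.35 ± 0.37, adjusted p = 9.81e-06 and LL-MG against LL-MDM 1.56 ± 0.31, adjusted p = 0.000332. These 3 calls held with each library left out, and LL-MDM against MDM also passed with the groups of the titles. The region had been named as a peak for LL-MG and MG alone. That these groups are highest there is therefore a description that the choice can favour. The locus of Sall1 had the same order of MDM below LL-MDM below the microglial groups, and its part in this result was not tested. At the start (chr7:143822469-143823291, shared with Nadsyn1) the libraries had 57.5, 50.8 and 46.8 CPM in LL-MG, 53.1, 71.9 and 56.4 CPM in MG, 76.2, 60.8 and 62.8 CPM in LL-MDM, and 45.9, 47.4 and 56.2 CPM in MDM. LL-MDM exceeded MDM (0.39 ± 0.13, adjusted p = 0.0227), which was lost without LL-MDM 1, LL-MDM 3, MDM 1 or MDM 2 (adjusted p = 0.0611 to 0.125) and with thinned libraries (0.28, adjusted p = 0.307). The loci of squalene epoxidase Sqle (45.2 to 66.5 CPM over the 12 libraries), lanosterol demethylase Cyp51 (34.9 to 61.7), the sterol reductase Tm7sf2 (81.5 to 140.4), Nsdhl of sterol demethylation (18.3 to 24.1) and the isomerase Ebp (13.8 to 20.9) passed in no comparison, and the counts of Tm7sf2, Nsdhl and Ebp are all shared with neighbours.

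Read as single regions, fewer of the 26 loci's regions passed between the lineages than of all regions. Of the 87 tested regions, 29 passed between MG and MDM, 15 higher and 14 lower (33.3%, against 51.7% of all 77737 regions, 26.8% higher and 24.9% lower). Between LL-MDM and MDM, 20 passed, 12 higher and 8 lower (23%, against 29.5% of all, 15.4% higher and 14.1% lower). Between LL-MG and MG, 15 passed, 3 higher and 12 lower (17.2%, against 12.2% of all, 4.22% higher and 8.01% lower). Between LL-MG and LL-MDM 8 passed, 1 higher and 7 lower (9.2%, against 21.5% of all, 10.3% higher and 11.2% lower). The difference of lipid-load effects passed in 9, 4 positive and 5 negative (10.3%, against 10.9% of all, 4.56% positive and 6.34% negative). Of the 26 regions at a promoter window, 7 were higher and 0 lower in MG than in MDM (26.9% higher, against 33.1% of all 10518 promoter regions). In LL-MDM 6 were higher and 1 lower than in MDM (23.1% higher, against 11.8%), and in LL-MG 0 were higher and 5 lower than in MG (19.2% lower, against 14.9%). Between LL-MG and LL-MDM 0 passed in edgeR or DESeq2, with 5 at an unadjusted p under 0.05. With DESeq2 the counts of promoter regions were 3 for MG against MDM, 3 for LL-MDM against MDM and 2 for LL-MG against MG. Of the 61 regions elsewhere, 8 were higher and 14 lower in MG than in MDM (13.1% and 23%, against 25.8% and 27.7% of all 67219 regions elsewhere). In LL-MDM 6 were higher and 7 lower than in MDM (9.84% and 11.5%, against 16% and 15.5%). In LL-MG 3 were higher and 7 lower than in MG (4.92% and 11.5%, against 4.67% and 6.93%). In LL-MG 1 was higher and 7 lower than in LL-MDM (1.64% and 11.5%, against 10.8% and 12.2%). The difference between promoter regions and the rest was not tested. Promoter windows held 35.0 to 35.9% of all counts in LL-MG, 36.9 to 38.8% in MG, 35.4 to 37.2% in LL-MDM and 33.9 to 35.9% in MDM, and the part of this share in the promoter counts was not tested. Of the 108 regions, 40 were read as named as peaks for MDM alone and 45 for all 4 groups, among the second 25 of the 26 at promoters. The regions of Insig2 at 121314992 and Mvd at 122436713 were read as named for MDM alone. MDM was not the highest group in either, so the reading of such names, and with it the count of 40, is uncertain.

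**Figure D5:**
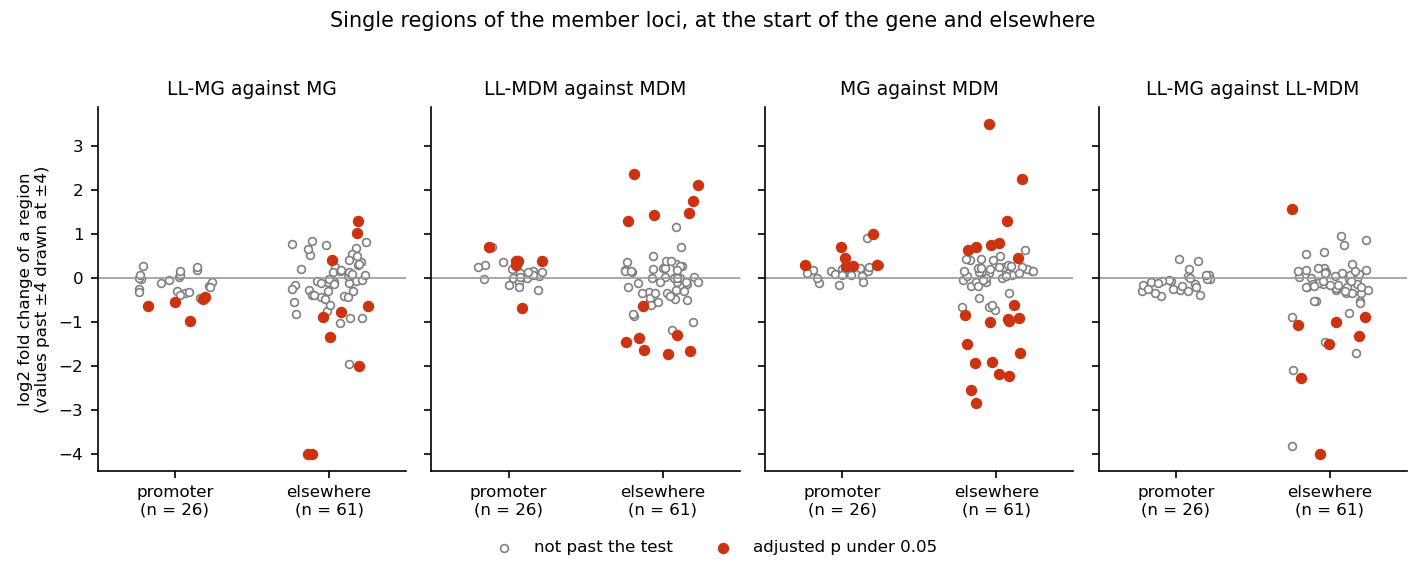
Log2 fold change (vertical axis, values past 4 drawn at 4) of each tested region of the 26 loci in the 4 comparisons, split into 26 regions at a promoter window and 61 elsewhere. Filled points passed the test. The promoter regions run from -0.98 to 1.01 over the 4 comparisons, while the regions elsewhere spread farther to both sides, most widely for MG against MDM.

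Genes around the pathway, taken from 6 fixed lists, are given next by their counts at locus level. The counts stand against shares of all loci of 11.7% higher and 12.2% lower for LL-MDM against MDM, 9.82% and 8.63% for LL-MG against MG, 20.4% and 20.6% for MG against MDM, and 12.1% and 8.43% for LL-MG against LL-MDM. Over the 6 lists 12 genes passed for LL-MG against MG, of which 9 were lost with at least 1 library left out, 6 in DESeq2 and all 12 with MG 1 as the only MG library. Of the other calls, leaving out a library ended 6 of 14 for LL-MDM against MDM, 9 of 28 for MG against MDM and 9 of 17 for LL-MG against LL-MDM. Among 15 tested genes of the sterol pathway and its side branches outside the 27, 1 was higher and 1 lower in LL-MDM than in MDM, 0 and 1 in LL-MG than in MG, 2 and 3 in MG than in MDM, and 0 and 3 in LL-MG than in LL-MDM. DESeq2 called 1 of the last 3 and 0 for LL-MG against MG. The gene lower in LL-MDM than in MDM was Dhdds, of dolichol synthesis (-0.35 ± 0.08, adjusted p = 0.00355), a call lost with thinned libraries. Por, the reductase that feeds electrons to Cyp51 and Sqle, had 407 ± 27.96 CPM in LL-MG, 355 ± 8.12 CPM in MG, 351 ± 22.2 CPM in LL-MDM and 280.2 ± 16.5 CPM in MDM (SD, n = 3 each). It was higher in LL-MDM and in MG than in MDM (0.33 ± 0.08, adjusted p = 0.00381, and 0.34 ± 0.08, adjusted p = 0.00104), also with each library left out.

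Of 18 fatty acid synthesis genes, targets of SREBP-1c, 2 were higher and 3 lower in LL-MDM than in MDM, 1 and 1 in LL-MG than in MG, 4 and 3 in MG than in MDM, and 3 and 4 in LL-MG than in LL-MDM. The desaturase gene Scd1 had 15.3 ± 0.609 CPM in LL-MG, 15.2 ± 1.31 CPM in MG, 24.6 ± 3.97 CPM in LL-MDM and 39.98 ± 0.552 CPM in MDM. It fell in LL-MDM and in MG relative to MDM (-0.75 ± 0.13, adjusted p = 0.000294, and -1.38 ± 0.13, adjusted p = 2.53e-08). The elongase gene Elovl5 had 102 ± 5.24 CPM in LL-MG, 101 ± 4.36 CPM in MG, 125 ± 10.6 CPM in LL-MDM and 163 ± 5.53 CPM in MDM, and changed the same way (-0.4 ± 0.08, adjusted p = 0.000779, and -0.69 ± 0.08, adjusted p = 2.31e-07). No library left out ended these 4 calls. Fasn, the fatty acid synthase gene, was higher in MG than in MDM (0.3 ± 0.08, adjusted p = 0.00638), a call lost without MDM 1 (adjusted p = 0.0584). Of 15 regulators of the turnover of SCAP, INSIG and sterol enzymes, 1 was higher and 1 lower in LL-MDM than in MDM, 1 and 1 in LL-MG than in MG (0 in DESeq2), 3 and 4 in MG than in MDM, and 1 and 1 in LL-MG than in LL-MDM. Erlin1, part of the complex that marks INSIG1 for degradation, had 45.5 ± 5.04 CPM in LL-MG, 47.4 ± 3.51 CPM in MG, 50.7 ± 0.756 CPM in LL-MDM and 80.3 ± 4.32 CPM in MDM. It was lower in LL-MDM and in MG than in MDM (-0.66 ± 0.09, adjusted p = 4.38e-05, and -0.77 ± 0.09, adjusted p = 5.75e-07), and its lipid-load effects differed between lineages (0.61 ± 0.14, adjusted p = 0.012), with each library left out too. This last call was lost with thinned libraries and with MG 1 as the only MG library.

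Of 12 oxysterol and LXR genes, 4 were higher and 0 lower in LL-MDM than in MDM, 4 and 1 in LL-MG than in MG (3 in all in DESeq2), 4 and 2 in MG than in MDM, and 4 and 1 in LL-MG than in LL-MDM. The cholesterol exporter gene Abca1, an LXR target, had 323 ± 10.9 CPM in LL-MG, 235 ± 48.8 CPM in MG, 398 ± 21.99 CPM in LL-MDM and 240.0 ± 15.6 CPM in MDM. It rose with lipid load in both lineages, by 0.47 ± 0.11, adjusted p = 0.00988 in LL-MG against MG and by 0.74 ± 0.11, adjusted p = 7.06e-05 in LL-MDM against MDM, with each library left out too. The gene of LXR alpha, Nr1h3, had 187 ± 10.8 CPM in LL-MG, 142 ± 12.6 CPM in MG, 217 ± 6.24 CPM in LL-MDM and 229.6 ± 12.8 CPM in MDM. It was higher in LL-MG than in MG (0.41 ± 0.08, adjusted p = 0.00545) and lower in MG than in MDM (-0.7 ± 0.08, adjusted p = 3.54e-07). Rxra, the gene of the LXR partner, had 195 ± 20.2 CPM in LL-MG, 159.9 ± 28.6 CPM in MG, 143 ± 5.999 CPM in LL-MDM and 81.1 ± 2.83 CPM in MDM. It was higher in LL-MDM and in MG than in MDM (0.83 ± 0.1, adjusted p = 1.06e-05, and 0.96 ± 0.1, adjusted p = 1.25e-07). Of 9 genes of protein prenylation and prenyl chain synthesis, 0 were higher and 1 lower in LL-MDM than in MDM, 0 and 2 in LL-MG than in MG (1 in DESeq2), and 3 and 0 in MG than in MDM. Between LL-MG and LL-MDM 0 passed in edgeR or DESeq2 (1 at an unadjusted p under 0.05). Rabggta, a subunit gene of the enzyme that attaches geranylgeranyl groups to Rab proteins, had 66.5 ± 6.34 CPM in LL-MG, 101 ± 22.02 CPM in MG, 75.1 ± 1.83 CPM in LL-MDM and 74.1 ± 1.56 CPM in MDM. It was lower in LL-MG than in MG (-0.63 ± 0.12, adjusted p = 0.00471) and higher in MG than in MDM (0.48 ± 0.11, adjusted p = 0.00124). With MG 1 as the only MG library both calls of Rabggta and those of Abca1 and Nr1h3 for LL-MG against MG were lost. Of the 9 genes of factors that bind DNA beside SREBPs, such as Nfya, Sp1 and Usf1, 0 passed in any comparison in edgeR or DESeq2, with 3 at an unadjusted p under 0.05 for LL-MDM against MDM, 3 for LL-MG against MG and 0 in the others. The median log2 fold change of the lists ran from -0.06 to 0.05 for LL-MDM against MDM and from -0.23 to 0.24 for LL-MG against MG, with the LXR list highest and the prenylation list lowest in the second.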

How the data were processed

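ATAC-seq counts of 12 libraries were analysed. Per the labels' protocols, nuclei were tagmented with Tn5, amplified in 2 rounds of 9 PCR cycles and selected for fragments of 150 to 700 bp. Per the submitters' processing notes the tools were deepTools 3.5.1, Picard 2.12.0, SAMtools 1.10 and BWA 0.7.17-r1188, in no stated role, and the build mm10. What is not given in the sources used here is the peak caller, duplicate removal and any shift for the Tn5 cut. The count values are whole-number counts of 12 libraries in 117835 regions, used as deposited by the authors, with a median region width of 179 bp. Whether starts count from 0 or 1 is not stated, so regions are printed as deposited.

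Region counts were summed per protein-coding gene span (RefSeq table, GRCm38.p6) with a flank of 5 kb, and neighbouring genes share regions. The table gives no exons, so exonic and intronic parts are not told apart. A promoter region overlaps the RefSeq window of 250 bases before to 50 after a start. Loci and regions were each filtered with filterByExpr and scaled by TMM, so that a region's CPM differs slightly between the 2 scales, and tested with edgeR 4.0.16 (glmQLFit, robust, and glmQLFTest, R 4.3.3) in 1 model over the 4 groups. Benjamini-Hochberg adjustment ran over all 15544 loci or 77737 regions. The difference of lipid-load effects is LL-MG minus MG, less LL-MDM minus MDM. The comparisons share groups, so they are not independent of each other.

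Replicate numbers follow the order of the samples, and no label without conflict ties libraries of different groups to the same mouse. Region totals were 2150072 to 2764146 counts in LL-MG, 2753453 to 6872724 in MG, 1162969 to 7390521 in LL-MDM and 6341183 to 18938222 in MDM, so low regions in LL-MDM 1 have the least precision. Alternatives were other scalings (with limma 3.58.1 for loess offsets), no filter, DESeq2 1.42.0, the groups of the titles, libraries thinned to the smallest total, each library left out, loci without the flank or without shared regions, and, chosen after seeing the data, a replicate block by library number and MG 1 as the only MG library, which is then assumed to vary like the other groups. The steps were tested on simulated data. The genes and lists were chosen with earlier results of these data known. Full values are given for the loci of the 12 genes past the test in a comparison of 2 groups and of the 5 regulators Srebf1, Srebf2, Scap, Insig1 and Insig2. Start regions and called regions of smallest p go with them, but not for every comparison. Full values were left out, among others, for the calls of Fdft1 at 63157592 (MG against MDM) and Dhcr7 at -304 bp from a start (LL-MG against MG). Regions chosen after their values were seen are named as such. Of each other list, up to 3 genes of smallest p per direction were eligible.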

Additional observations from a re-analysis of the deposited data

Results flagged for a closer look

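Each of these results has lipid-load effects that differed between microglia and monocyte-derived macrophages by a direct test (edgeR's interaction term). Values are the log2 effect in microglia minus that in MDM. At locus level these were Srebf2 (0.4 ± 0.11, adjusted p = 0.0262) and Pmvk (0.51 ± 0.16, adjusted p = 0.0466). In both, LL-MDM was lower than MDM, and LL-MG did not pass against MG. Of the regions, those of Srebf2 1.5 kb (2.02 ± 0.47, adjusted p = 0.00579), 4.9 kb (1.37 ± 0.45, adjusted p = 0.045) and 49.3 kb inside (1.39 ± 0.41, adjusted p = 0.027) and that of Pmvk 1.9 kb before its span (1.8 ± 0.45, adjusted p = 0.00905) had positive values. The Srebf2 region 19.1 kb inside had -5.65 (adjusted p = 0.0333), a fitted value with all LL-MG libraries at 0 counts and therefore no size of effect. Negative values were found at the Lss start (-1.08 ± 0.22, adjusted p = 0.00166), the Dhcr7 start (-0.64 ± 0.19, adjusted p = 0.0294), inside Dhcr7 at 2.3 kb (-1.94 ± 0.45, adjusted p = 0.00518) and at the Ggps1 start shared with Arid4b (-0.55 ± 0.16, adjusted p = 0.0272). The median of this difference over all tested regions was -0.12, so values below 0 are the more common direction. Of these regions, those of Srebf2 at 1.5, 4.9 and 19.1 kb and that of Pmvk had been named as peaks for MDM alone. That inside Dhcr7 had been named for LL-MG and MG alone. Such a choice can favour differences between these groups and the others. Thinning all libraries to the smallest one ended the calls for the regions of Srebf2 at 1.5 kb and Dhcr7 at 2.3 kb. It did not end those of Pmvk 1.9 kb before its span and the Lss start. Leaving out 1 library ended none of the calls for these regions of Srebf2, Dhcr7, Pmvk and Lss. It ended that of the Srebf2 locus in 6 of 12 fits (adjusted p = 0.0549 to 0.0953) and that of the Pmvk locus in 9 of 12 (adjusted p = 0.0633 to 0.176). It ended those of Srebf2 at 4.9 kb without LL-MDM 1, LL-MDM 3, MDM 1, MDM 2, LL-MG 1, LL-MG 2, LL-MG 3 or MG 2 (adjusted p = 0.056 to 0.123), at 19.1 kb, which 10 fits tested, without LL-MDM 1, LL-MDM 2, MDM 2, LL-MG 1, LL-MG 2, LL-MG 3 or MG 2 (adjusted p = 0.0517 to 0.114), and at 49.3 kb without LL-MDM 2, LL-MDM 3, MDM 2, LL-MG 1, LL-MG 2, LL-MG 3 or MG 2 (adjusted p = 0.0532 to 0.105). It ended that of the Dhcr7 start without LL-MDM 1, LL-MDM 2, LL-MDM 3, MDM 1, MDM 2, LL-MG 1, LL-MG 2, LL-MG 3 or MG 2 (adjusted p = 0.0574 to 0.166) and that of Ggps1 without LL-MDM 1, LL-MDM 3, MDM 1, MDM 2, LL-MG 1, LL-MG 2, LL-MG 3, MG 2 or MG 3 (adjusted p = 0.0507 to 0.14). With MG 1 as the only MG library, Srebf2 at 1.5 kb was 1.70, adjusted p = 0.0833 and the Pmvk region 1.41, adjusted p = 0.0731.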

How the results depend on the processing

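Counts are given in the order LL-MG against LL-MDM, MG against MDM, then LL-MDM against MDM, then LL-MG against MG, then the difference of lipid-load effects. With 1 library left out, the counts of called loci ran from 0 to 4, 4 to 11, 4 to 10, 1 to 9 and 0 to 6 (2, 6, 7, 4 and 2 with all libraries), and those of regions from 5 to 15, 18 to 35, 13 to 29, 5 to 28 and 4 to 16 (8, 29, 20, 15 and 9). Leaving out MG 1 gave 9 loci and 28 regions for LL-MG against MG, and leaving out MG 2 gave 1 and 7. With the groups of the titles the counts were 0, 0, 1, 1 and 0 loci and 0, 0, 7, 6 and 0 regions. With thinned libraries loci gave 0 for LL-MG against LL-MDM, 2 for LL-MG against MG and 1 for the difference, Lss with a negative value. Srebf2 and Pmvk did not pass there, and regions gave 2, 11, 10, 6 and 2. With MG 1 as the only MG library loci gave 4 for LL-MG against LL-MDM and 0 for LL-MG against MG and for the difference, and regions gave 15, 35 for LL-MDM against MDM, 0 and 2. DESeq2 gave 1 locus for LL-MG against LL-MDM and 19 regions for MG against MDM. Unshared regions alone gave 4 loci for LL-MG against LL-MDM, 4 for LL-MDM against MDM and 1 for the difference, which size factors and spans without flank also put at 1.

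Of single results, the groups of the titles changed the sign of Mvd (-0.03) and Lss (0.12) for LL-MG against MG, Fdft1 for LL-MDM against MDM (-0.003) and LL-MG against MG (-0.14), Msmo1 for MG against MDM (0.04) and Hsd17b7 for LL-MDM against MDM (-0.08). They did so in the regions of Mvd at 6.6 kb (-0.92 for LL-MDM against MDM, -0.96 for LL-MG against MG, 0.38 for LL-MG against LL-MDM), Dhcr7 at -304 bp from a start (0.20), Lss at 9.9 kb (0.15) and the Scap start (0.18) for LL-MG against MG, and of Fdft1 at 63157592 (0.08) and Hmgcs1 at 22.9 kb (-0.21) for MG against MDM. The same held for the Hsd17b7 start (-0.07 for LL-MDM against MDM), for Pmvk 8.9 kb from its inner start (0.09), Srebf1 at 0.8 kb (0.10) and Srebf2 at 19.1 kb (0.57) for LL-MG against LL-MDM, and for the difference at Pmvk 1.9 kb before its span (-0.02). With MG 1 as the only MG library Lss gave -0.03 for MG against MDM. The cause of these changes was not tested. No filter ended none of the 21 locus calls, loess offsets ended 1, size factors 2, DESeq2 and spans without flank 4 each, total counts and unshared regions 5 each, MG 1 as the only MG library 8 besides the change of sign, and thinned libraries 10. Scaling by total counts moved the median of all regions for LL-MG against MG from 0.005 to 0.123. The depth of LL-MDM 1 limits every comparison with LL-MDM in regions of few counts. The library numbers in the column names form 3 sets of 4 with every group in each. The mouse numbers in the titles conflict with them. Deviations from group means over 15544 loci correlated at -0.14 to 0.091 in 18 pairs of the same set. In 36 pairs of different sets they correlated at -0.147 to 0.133, and 3 of 12 libraries were closest to their own set. With group means of 3 libraries, these values cannot show whether a set shares a mouse or a batch. A replicate block by these sets, chosen after seeing the data, gave 2, 4, 6, 4 and 1 loci and 8, 28, 19, 13 and 8 regions, and ended 4 of the 21 locus calls.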
